A study of Monodelphis domestica with 7 samples.

Results

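CSF1R and CSF2RB, the myeloid growth factor receptor genes of the table (ENSMODG00000009759 and ENSMODG00000000744), were followed by their gene identifiers through all 7 RNA-seq libraries of neonatal opossum spinal cord. They are 2 of 21314 genes listed, and both were among the 13534 genes that passed the filter on low counts. The samples were cord segments rostral to the injury from pups of *Monodelphis domestica*, a marsupial whose young are born very immature. Cords were cut completely at the tenth thoracic segment at postnatal day 7 or 28 and collected 24 h later (P7+24h injured and P28+24h injured), and the controls were uncut cords of pups of the same age (P8 control and P29 control, or P8 and P29 for short). P8 controls came from separate litters, and P29 controls were littermates that were anaesthetised but not cut. Both sexes were used, and no transgene or mutation was named in the labels. The methods state that each library pooled 2 individuals, but the animal totals they give per group are larger than such pools would account for. There were 2 libraries of each group, one from each of 2 sequencing runs of separately collected samples, except the P29 control, which had 1 library, from run 1.

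CSF1R encodes the receptor tyrosine kinase that binds CSF-1 and interleukin-34. In the spinal cord it is carried by microglia and other macrophages, which depend on it to survive and divide. CSF2RB encodes the common beta chain that pairs with separate alpha chains to form the receptors for GM-CSF, interleukin-3 and interleukin-5. It has no kinase of its own and signals through JAK2 and STAT5, and it is found on macrophages, microglia, granulocytes and other blood cells. Both receptors thus report on myeloid cells, through different ligands. In pooled tissue a change in the number of these cells and a change in RNA per cell cannot be told apart.

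Library totals ran from 3332232 to 6256074 counts, and the receptors had 2 to 135 counts a library, near the lower end of what was measurable. Levels are given as CPM, the counts of a gene scaled to a fixed library total. The glial genes GFAP, MBP and OLIG2, taken as markers of cord tissue, summed to 309 to 1179 CPM in the younger libraries and 14451 to 23685 CPM in the older ones. MBP, a myelin gene, was part of that sum, and each of the 3 genes had counts in every library. Runs 1 and 2 differed across the whole transcriptome, so injured and control libraries are set side by side within a run where both exist. Group means and the fit without a block take no account of the run.

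After injury at P7 both receptors were higher than in uncut cord in both runs, CSF2RB by more than CSF1R. Among P8 controls CSF2RB had 3 counts in run 1 and 2 in run 2, and among P7+24h injured libraries 17 and 69. In CPM after scaling by the trimmed mean of M-values (TMM), these were 0.738 and 0.334 against 4.44 and 10.4. The group means were 0.536 ± 0.285 CPM in the control and 7.45 ± 4.24 CPM after injury (SD, n = 2 each). Both injured libraries lay above both controls, without overlap, and the higher injured library was that of run 2. Every injured library lay above every control for 8.74% of all genes tested. The ratio of injured to control was 6.02 in run 1 and 31.3 in run 2, with 95% intervals of 1.74 to 32.1 and 8.33 to 263 that cover counting error only. The wide upper limits came with the 2 or 3 counts of the controls.

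CSF1R had 3 and 7 counts as P8 control and 8 and 34 counts as P7+24h injured, that is 0.738 and 1.17 CPM against 2.09 and 5.15 CPM. The means were 0.954 ± 0.305 and 3.62 ± 2.16 CPM (SD, n = 2 each). These groups did not overlap either. The injured library of run 1 exceeded its control by 2.83 times, an excess that counting error alone could cover (95% interval 0.68 to 16.6), and that of run 2 by 4.40 times (1.92 to 11.8).

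**Figure D1:**
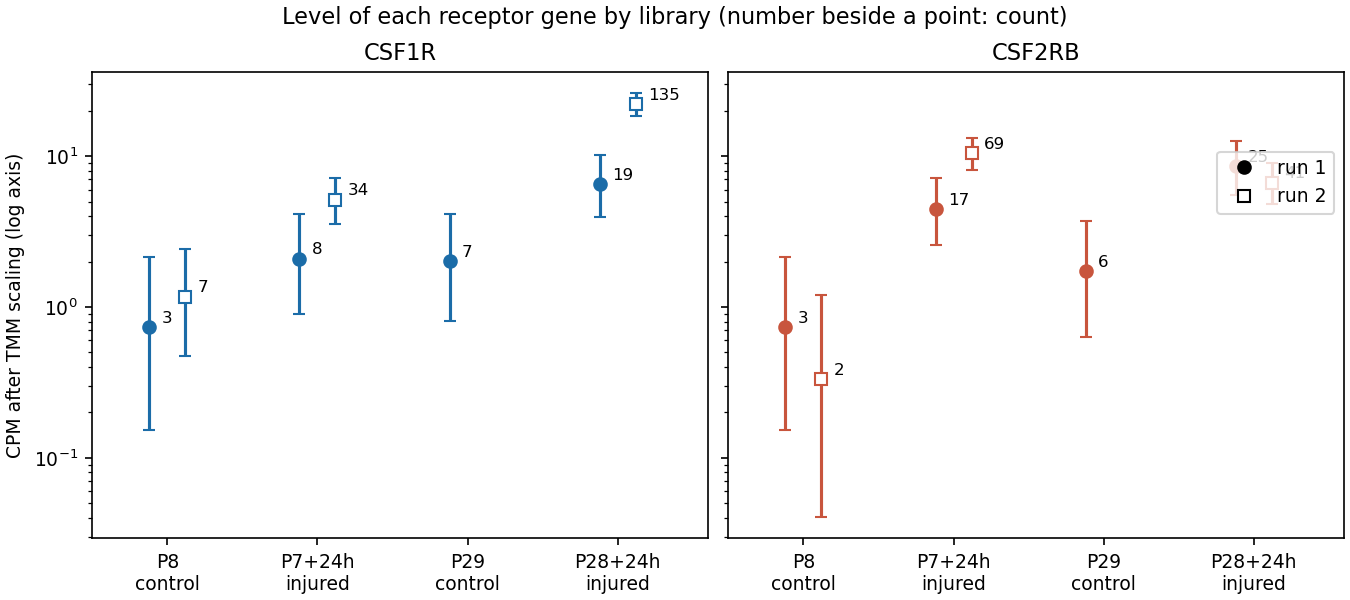
CPM after TMM scaling (log axis) of CSF1R (left) and CSF2RB (right) in each library, by group, with exact 95% Poisson intervals as bars, filled circles for run 1, open squares for run 2 and the count beside each point. The injured libraries sit above the controls of their age for both genes. Among the P28+24h injured libraries CSF1R differs between the runs, with 19 counts in run 1 and 135 in run 2, while CSF2RB has 25 and 41.

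Across all genes, edgeR's quasi-likelihood test with Benjamini-Hochberg adjustment gave a log2 fold change of 3.81 ± 0.70 (SE) for CSF2RB at P7, with an unadjusted p of 0.00164 and an adjusted p of 1. For CSF1R it gave 1.90 ± 0.82, with an unadjusted p of 0.0610 and an adjusted p of 1. A gene was called where the adjusted p was under 0.05 and the fold at least 2. No gene was called raised in this fit (0% of those tested), although 69 genes had an unadjusted p under 0.05, and CSF2RB held place 10 and CSF1R place 64 of 13534 in order of fold. With the sequencing run as a block the changes were much the same, 3.89 ± 0.63 for CSF2RB (adjusted p = 0.117) and 1.94 ± 0.49 for CSF1R (adjusted p = 0.793), and the test called 0.0148% of all genes raised. CSF2RB passed by 2 other tests. The likelihood ratio test with the same block gave it 3.84 on the log2 scale (adjusted p = 1.2e-06), in a test that called 0.266% of genes raised. The exact test on the P7+24h and P8 libraries alone, which resembles the test in the study's methods, gave an adjusted p of 0.0340 and called 0.0468% raised. CSF1R was not called by either (adjusted p = 0.0534 and 1).

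After injury at P28 both receptors were again higher in every injured library than in the single P29 control, and here the runs disagreed on CSF1R. The P29 control held 7 counts of CSF1R, and the P28+24h injured libraries held 19 in run 1 and 135 in run 2, that is 2.00 CPM against 6.53 and 22 CPM. The injured mean was 14.3 ± 10.9 CPM (SD, n = 2). Within run 1, the only run with a control, the ratio was 3.26 (95% counting interval 1.31 to 9.17). The run 2 library stood 11 times above the run 1 control (5.18 to 27.8) and 3.37 times above the injured library of run 1 (2.08 to 5.77). The gap between the injured libraries was thus about as wide as the gap between injured and control in run 1, and without the run 2 library the log2 fold change of the fit fell from 2.84 to 1.66.

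The P29 control held 6 counts of CSF2RB, and the P28+24h injured libraries held 25 in run 1 and 41 in run 2, that is 1.72 CPM against 8.59 and 6.68 CPM. The injured mean was 7.64 ± 1.35 CPM (SD, n = 2). The injured libraries were within counting error of one another (run 2 over run 1 0.78, interval 0.46 to 1.33), and the ratio to the control was 5.0 in run 1 (2.00 to 14.9). Both injured libraries lay above the control for 21.7% of all genes tested, a wide background that goes with the single control library.

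The quasi-likelihood test gave 2.84 ± 1.03 for CSF1R (unadjusted p = 0.0335) and 2.14 ± 0.82 for CSF2RB (unadjusted p = 0.0407), both with an adjusted p of 1. It called 0% of genes raised, with 157 genes at an unadjusted p under 0.05. With the run as a block CSF1R came down to 1.90 ± 0.58 (adjusted p = 0.146) and CSF2RB stood at 1.93 ± 0.76 (adjusted p = 0.246), against 0.584% of genes called raised. The likelihood ratio test with the block called CSF1R (log2 fold change 1.90, adjusted p = 0.0422) and did not call CSF2RB (1.99, adjusted p = 0.0953), and it called 2.61% of all genes raised. The exact test called neither (adjusted p = 1 for both) and 0.0153% of genes raised. Since the same P29 library is the control of both injured libraries, the spread of the control at this age was not measured.

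**Figure D2:**
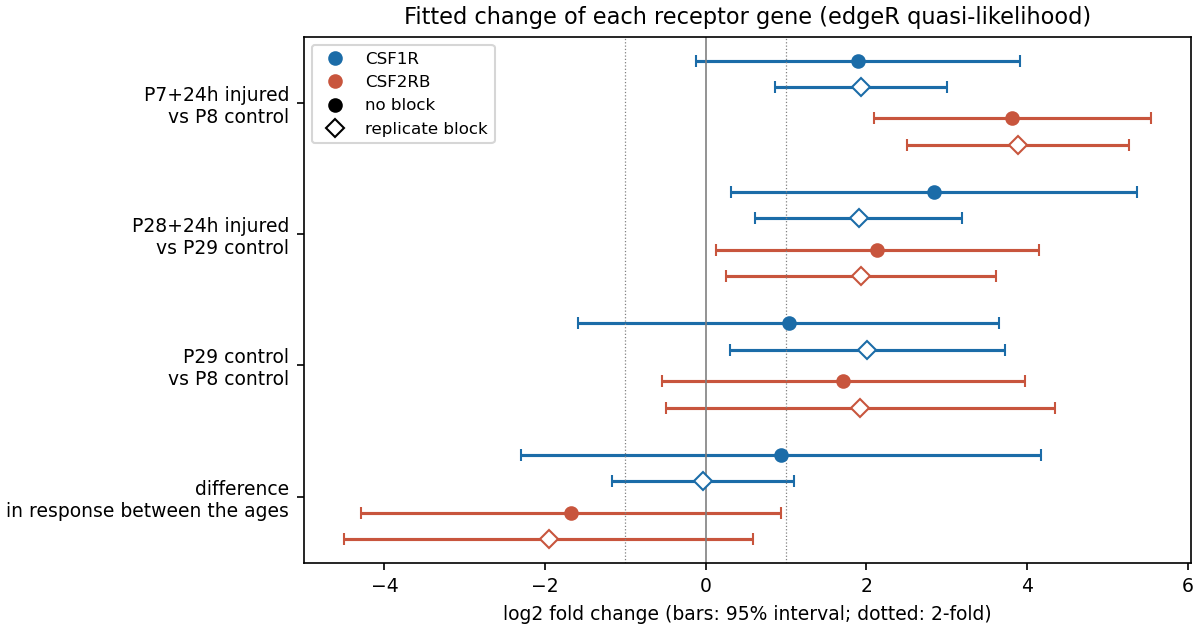
Log2 fold change (x axis) of CSF1R and CSF2RB in 4 comparisons (y axis), from edgeR's quasi-likelihood fit without a block (filled circles) and with the run as a block (open diamonds), with 95% intervals that are not adjusted for multiple genes, and dotted lines at 2-fold. The block moves CSF1R from 2.84 to 1.90 at P28 and its difference between the ages from 0.94 to -0.03, and moves CSF2RB less.

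In uncut cord, both genes had few counts at either age. From P8 to P29, within run 1, CSF1R went from 0.738 to 2.00 CPM (ratio 2.72, counting interval 0.62 to 16.3) and CSF2RB from 0.738 to 1.72 CPM (2.33, 0.50 to 14.4), so that neither difference exceeded counting error. The quasi-likelihood test gave 1.03 ± 1.07 for CSF1R (adjusted p = 0.627) and 1.71 ± 0.92 for CSF2RB (adjusted p = 0.381), and called 1.71% of genes raised. With the block CSF1R was at 2.01 ± 0.78 (adjusted p = 0.0751) and CSF2RB at 1.92 ± 1.10 (adjusted p = 0.215), while 12.5% of genes were called raised. The likelihood ratio test with the block called CSF1R (2.02, adjusted p = 0.0443) but not CSF2RB (1.88, adjusted p = 0.128), with 13.6% of genes called raised. The fitted levels of both genes were higher at P29 in each of these fits. The only call was that of CSF1R, in a test that called many genes.

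Whether the response to injury differed with age was tested as the P28 change minus the P7 change. For CSF1R this was 0.94 ± 1.32 on the log2 scale (95% interval -2.30 to 4.18, adjusted p = 1.00) without the block and -0.03 ± 0.51 (-1.17 to 1.10, adjusted p = 0.990) with it. For CSF2RB it was -1.68 ± 1.07 (-4.29 to 0.94, adjusted p = 1.00) without the block and -1.95 ± 1.16 (-4.50 to 0.59, adjusted p = 0.656) with it, a smaller fitted change at P28 in both fits. No difference passed, and the intervals leave room for changes of more than 2-fold in either direction for CSF1R. Calls in either direction covered 0% of genes without the block, 0.0369% with it and 1.48% by the likelihood ratio test, which called neither receptor (adjusted p = 0.992 for CSF1R and 0.563 for CSF2RB).

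The levels after injury can be set side by side within a run without a control. In run 1, P28+24h exceeded P7+24h by 3.12 times for CSF1R (counting interval 1.30 to 8.24) and by 1.93 times for CSF2RB (1.00 to 3.81). In run 2, CSF1R was 4.27 times higher at P28+24h (2.92 to 6.42), whereas CSF2RB was at 0.64 times (0.42 to 0.95). CSF1R was therefore higher in the older injured cord in both runs beyond counting error, and CSF2RB changed its order between runs.

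The order of the levels followed from these values. For CSF1R the group means ran P8 control, P29 control, P7+24h injured and P28+24h injured, and in run 1 the P29 control (2.00 CPM) and P7+24h injured (2.09 CPM) libraries were nearly level. For CSF2RB they ran P8 control, P29 control, P7+24h injured (7.45 CPM) and P28+24h injured (7.64 CPM), and the last 2 groups overlapped. CSF1R was higher in run 2 than in run 1 in each of the 3 groups with both runs, by 0.46, 1.15 and 1.69 on the log2 scale with a prior count of 2 (P8 control, P7+24h injured and P28+24h injured), whereas CSF2RB differed by -0.62, 1.16 and -0.34. The median over all genes differed by 0.02 to 0.07, and the SD over genes by 0.77 to 0.97, so that the run gap of both receptors was over 1 SD in the P7+24h injured group, that of CSF1R alone was in the P28+24h injured group, and neither was in the P8 control.

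The balance between the receptors does not depend on library depth. CSF2RB made up 68.0% and 67.0% of the counts of both receptors together in the P7+24h injured libraries (Clopper-Pearson 95% intervals 46.5 to 85.1 and 57.0 to 75.9). In the P8 controls it made up 50% and 22.2%, of 6 and 9 counts, with intervals of 11.8 to 88.2 and 2.81 to 60. The injured libraries of P7 thus had close shares in both runs, with a wide interval in run 1, whose share rests on 25 counts, while the controls had too few counts to place theirs. At P28 the share was 46.2% in the control (19.2 to 74.9), 56.8% in the injured library of run 1 (41.0 to 71.7) and 23.3% in that of run 2 (17.3 to 30.3). The injured libraries of P28 stood apart from one another, and that of run 2 lay below both of P7. These shares compare counts and not molecules, since the transcripts differ in length.

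Of the other receptor chains on the list, which held the partner alpha chains as well, only CSF3R, the receptor for G-CSF on neutrophils and their precursors, could be matched to an identifier. Its counts were 19 and 17 at P8, 17 and 24 after injury at P7, 3 at P29 and 6 and 46 after injury at P28. At P7 the control and injured libraries overlapped at 2.84 to 4.67 and 3.63 to 4.44 CPM. Its log2 fold change was 0.11 ± 0.67 at P7 and 2.50 ± 1.05 at P28 by the quasi-likelihood test (adjusted p = 1 for both), and of the receptors it alone had a lower fitted level at P29 than at P8 (-2.07 ± 1.05, adjusted p = 0.356). Like CSF1R, it was higher in run 2 than in run 1 of the P28+24h injured group. The ligands CSF1, IL34, CSF2, IL3, IL5 and CSF3, the alpha chains CSF2RA, IL3RA and IL5RA, and the related kinases KIT, FLT3, PDGFRA and PDGFRB were not analysed here.

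Of 7 myeloid transcription factors, 2 could be matched: SPI1, which encodes PU.1, an activator of CSF1R transcription in macrophages, and CEBPD, a C/EBP factor induced in inflammation. SPI1 had 21 and 60 counts after injury at P7 against 10 and 13 in its controls, and 102 and 150 after injury at P28 against 31. CEBPD had 24 and 22 counts against 53 and 79 at P7, and 54 against 116 and 291 at P28. The injured libraries of both genes lay above the controls of the same age in every case. The same held for 8.74% of all genes tested at P7 and 21.7% at P28. By the quasi-likelihood test neither was called (log2 fold changes of SPI1 1.66 ± 0.44 and 1.75 ± 0.53 at P7 and P28, and of CEBPD 1.44 ± 0.37 and 1.51 ± 0.45, adjusted p = 1 for all), whereas the likelihood ratio test with the block called both at both ages, beside 0.266% of all genes raised at P7 and 2.61% at P28. These genes, like all those matched for the receptor, signalling and macrophage lists, had been listed by the study as changed in these same samples, so that their direction is not independent evidence.

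Of 22 genes of receptor signalling, 7 could be matched: the kinase FES, the phosphatase PTPN6, the lipid kinase subunits PIK3CD and PIK3CG, the adaptors TYROBP and DOK3 and the exchange factor VAV1. None was called after injury by the quasi-likelihood test with or without the block. In run 1 at P28 the injured library exceeded its control for all 7, but how many of all genes were higher in that pair was not counted. Of the 7 genes, 4 were higher in both runs at P7 too, so in all 3 pairs within a run, as were 16.3% of all genes tested. The likelihood ratio test with the block called 0 of 7 at P7 and 5 of 7 raised at P28, where it called 0.266% and 2.61% of all genes raised. TYROBP, which couples to receptors of microglia, had 14 and 15 counts at P8, 37 and 43 after injury at P7, 41 at P29 and 180 and 87 after injury at P28. Its P28+24h injured libraries thus ranked in the opposite order to those of CSF1R, and only 1 of the 7 genes was higher there in run 2 than in run 1.

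**Figure D3:**
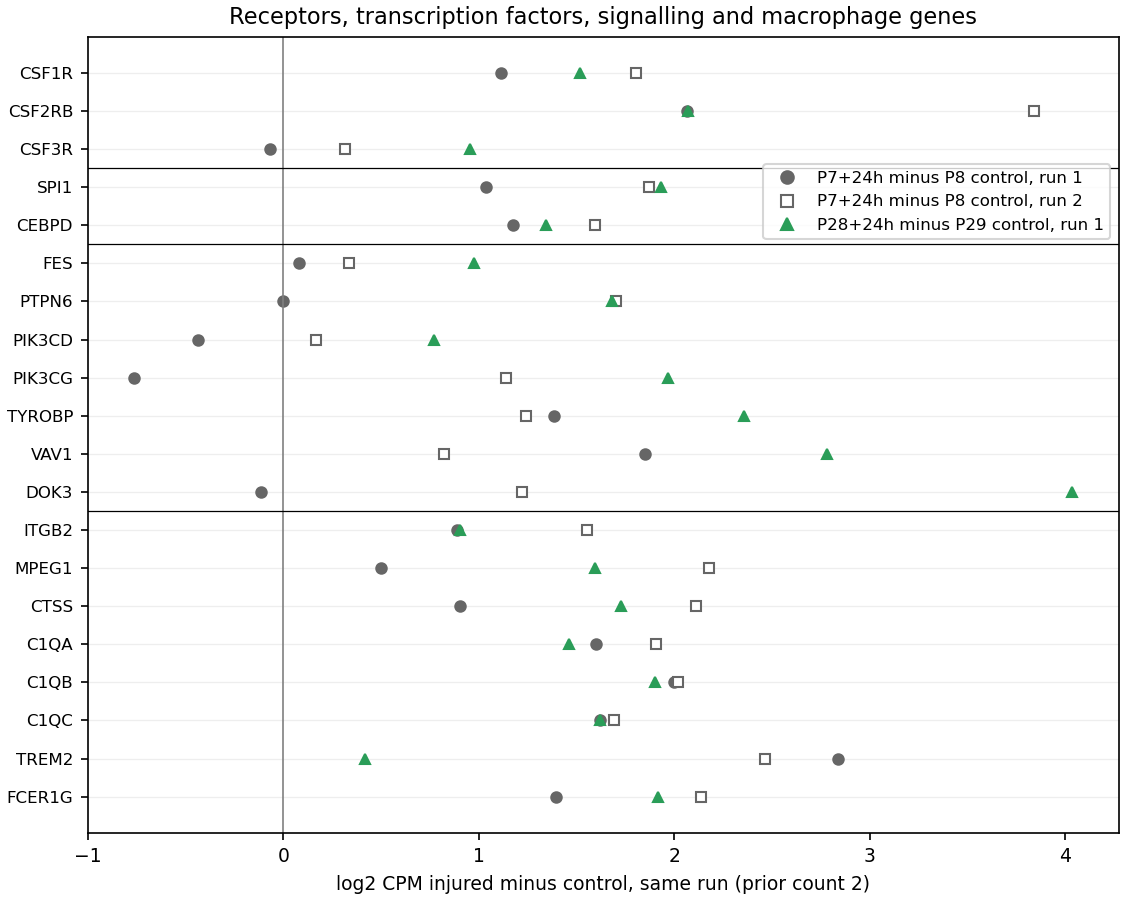
Log2 CPM (prior count 2) of the injured library minus that of the control library of the same run (x axis) for the matched receptor, transcription factor, signalling and macrophage genes (y axis, separated by lines), at P7 in run 1 (filled circles) and run 2 (open squares) and at P28 in run 1 (triangles). Both receptors lie to the right of 0 in all 3 pairs, at 1.11 to 1.81 for CSF1R and 2.07 to 3.84 for CSF2RB, as do all 8 macrophage genes, whereas CSF3R lies near 0 at P7.

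Markers of the cells that could carry these receptors were set beside them. Of 18 genes of microglia and macrophages 8 could be matched (ITGB2, MPEG1, CTSS, C1QA, C1QB, C1QC, TREM2 and FCER1G), and all 8 were higher in the injured library than in the control of the same run in all 3 pairs, as were 16.3% of all genes tested. Their summed level was 31.2 and 38.6 CPM in the P8 controls, 98.0 and 155 CPM after injury at P7, 136 CPM at P29 and 410 and 348 CPM after injury at P28. C1QA, a subunit of the complement starter C1q and the most abundant of them, had 37 and 69 counts at P8, 109 and 293 after injury at P7, 144 at P29 and 333 and 599 after injury at P28. The median log2 fold change of the 8 genes was 1.85 at P7 and 1.61 at P28, against 0.01 and 0.05 over all genes. All 8 had been listed by the study as changed in these same samples, so that their rise is not independent evidence. None was called by the quasi-likelihood test with or without the block, and 8 at P7 and 6 at P28 were called by the likelihood ratio test with it, which called 0.266% and 2.61% of all genes raised. TREM2 was listed at 0 in the P8 control of run 1, and all other macrophage genes had counts in every library.

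Measured against these genes, a receptor left the counting interval of its control within a run only in run 2 at P7. That receptor was CSF2RB, of which the control there had 2 counts. As a percentage of the counts of itself and the 8 macrophage genes, CSF1R went from 2.31% (P8 control) to 2.09% (P7+24h injured) in run 1 and from 2.94% to 3.20% in run 2. It was 1.45% in the P29 control and 1.57% in the injured library of run 1, so that in each of the 3 pairs within a run its share was within the counting intervals of its control. The injured library of run 2 at P28 was the exception, at 5.94% (5.01 to 7.00). In CPM, 4 of the 8 macrophage genes were also higher there than in the injured library of run 1. ITGB2 (37.2 against 12.7) and MPEG1 (54.8 against 21.6) were among them, while C1QA, C1QB, C1QC and FCER1G were lower. The share thus depends on which macrophage genes weigh most in the sum. CSF2RB went from 2.31% to 4.34% in run 1 and from 0.858% to 6.30% in run 2, the latter (4.93 to 7.90) above the interval of its control (0.104 to 3.07). In the P29 control it was at 1.25%, and the P28+24h injured libraries stood at 2.05% and 1.88%, with overlapping intervals. CSF2RB thus stood higher relative to the macrophage genes in run 2 at P7, and in the other pairs within a run neither receptor left the counting interval of its control. Those intervals were wide, such as 0.478 to 6.60% in the P8 control of run 1, since the controls held 2 to 7 counts of a receptor. Staying within them therefore cannot tell whether a receptor kept pace with the macrophage genes.

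**Figure D4:**
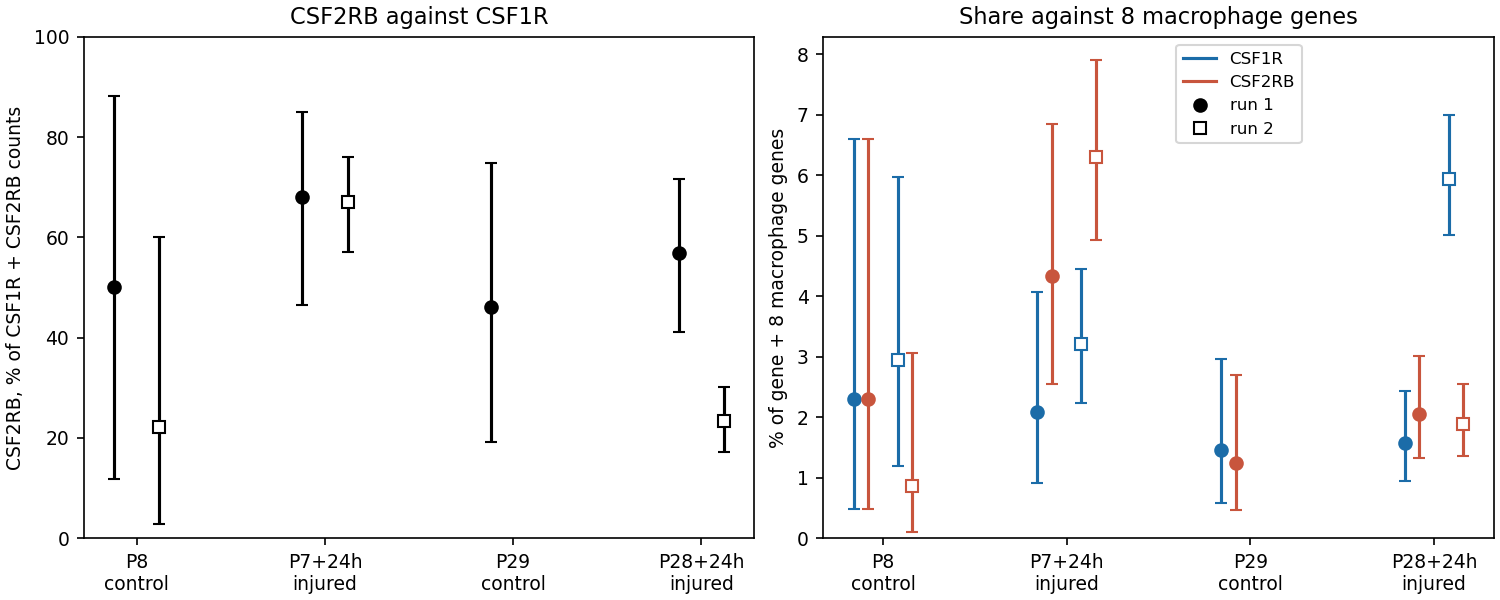
Left, CSF2RB as a percentage of the counts of CSF1R and CSF2RB together. Right, CSF1R and CSF2RB each as a percentage of the counts of itself and 8 macrophage genes. Points are libraries by group (filled circles run 1, open squares run 2) and bars are exact 95% binomial intervals. CSF2RB is 68.0% and 67.0% in the P7+24h injured libraries on the left. Among the CSF1R points on the right, the injured library of run 2 at P28 is highest, at 5.94%.

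Blood and muscle markers were set beside the receptors as well. All of those matched had been listed by the study as changed in these samples, so that their direction is not independent evidence. The quasi-likelihood test without the block called none of them after injury, and at P7 none was called with the block either. At P28 the test with the block called 3 of 7 erythroid and 2 of 5 muscle genes raised, beside 0.584% of all genes. The likelihood ratio test with the block called 6 of 7 erythroid and 5 of 5 muscle genes raised at P28. It also called 2 of 4 neutrophil and monocyte and 1 of 2 platelet genes raised there, beside 2.61% of all genes. Of 14 neutrophil and monocyte genes 4 could be matched (S100A8, S100A9, PLAC8 and F13A1), with a summed level of 2.01 to 20.7 CPM in the P8 controls, 12.6 to 30.9 CPM after injury at P7, 12.6 CPM at P29 and 31.6 to 39.2 CPM after injury at P28. S100A9 and F13A1 were listed at 0 in the P8 control of run 2. In CPM all 4 were higher after injury in run 1 at P28, a pair for which the share of all genes was not counted. Of the 4 genes, 3 were higher in both runs at P7 too, so in all 3 pairs within a run, as were 16.3% of all genes tested. The summed levels overlapped between the groups at P7, unlike the levels of the receptors. Within a run the sum was higher after injury at P7, at 30.9 against 20.7 CPM in run 1 and 12.6 against 2.01 CPM in run 2. PLAC8 did not overlap at P7 (2.21 and 1.17 CPM in the controls, 5.75 and 3.48 CPM after injury), whereas S100A8, S100A9 and F13A1 did. The 7 matched erythroid genes of 9 summed to 82.7 to 451 CPM in the P8 controls and 73.1 to 295 CPM after injury at P7, where none was higher in both runs, and HBA was listed at 0 in the P7+24h injured library of run 2. At P28 they summed to 287 CPM in the control and 195 to 653 CPM after injury, where all 7 were higher in run 1. The share of all genes higher in that pair alone was not counted. The erythroid sum was higher in run 1 than in run 2 in every group with both runs. CSF1R was higher in run 2 in each of these groups, and CSF2RB in the P7+24h injured group alone. The 2 matched platelet genes of 5, ITGA2B and VWF, summed to 12 to 29.0 CPM in the P8 controls, 17.3 to 23.5 CPM after injury at P7, 28.9 CPM at P29 and 58.1 to 73.7 CPM after injury at P28. The 5 skeletal muscle genes summed to 3.44 to 6.52 CPM, 6.27 to 12.3 CPM, 4.58 CPM and 43.5 to 140 CPM in the same order of groups, with MYH4 at 0 in the P8 control of run 1. The part of the blood, platelet and muscle content in the levels of the receptors was not tested, and the lymphocyte markers were not analysed here.

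The genes most like each receptor over the 7 libraries were found by Pearson's correlation of log2 CPM. These correlations describe 7 libraries that share runs and groups and carry no p. Symbols were known mainly for genes the study listed as changed. All the named genes below had been so listed and none of the unnamed ones had, so the names do not describe the closest genes as a set. For CSF1R the closest of 13533 other genes was ITGB2 (r = 0.98), the beta 2 integrin chain of leukocytes, with 13 and 32 counts at P8, 24 and 109 after injury at P7, 23 at P29 and 37 and 228 after injury at P28. Like CSF1R it was highest by far in the P28+24h injured library of run 2. The 4 genes next to it (r = 0.97 to 0.98) could not be paired with a symbol. With the mean of each run subtracted, CEBPD (r = 1.00) and ITGB2 (r = 0.99) were among the 5 closest. For CSF2RB the named genes among the closest 5 were ISG20 (r = 0.96), an exonuclease induced by interferon, and VSIG4 (r = 0.94), a complement receptor of macrophages, and the other 3 had no symbol. ISG20 had 0 and 1 counts at P8, 5 and 18 after injury at P7, 1 at P29 and 5 and 9 after injury at P28, so that it too was highest at P7 in run 2. VSIG4 had 5 and 3 counts, 14 and 37, 7, and 35 and 63 in the same order. With the mean of each run subtracted, ISG20 was still among the closest 5 (r = 0.97) and VSIG4 was not. An interferon-induced gene similar to IFIT1B then ranked above ISG20 (r = 0.98). Since run 2 holds no P29 control, the run means cover different groups. The receptors correlated with one another at r = 0.78, which placed CSF2RB at position 279 among the genes closest to CSF1R and CSF1R at position 88 among those closest to CSF2RB. With the mean of each run subtracted, r was 0.82 and these positions were 986 and 169.

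In the RefSeq annotation of another opossum assembly (mMonDom1.pri), no gene overlapped CSF1R or CSF2RB, so that an overlapping or antisense neighbour is not annotated there as a further source of their reads. CSF1R lay between HMGXB3 and PDGFRB, a related receptor kinase, and CSF2RB between NCF4, a subunit of the phagocyte oxidase, and CIMIP4. Coordinates are not given, as the files were made on a different build.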

How the data were processed

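Spinal cord RNA of *M. domestica* was sequenced in 7 libraries, 100 base single reads. Per the labels and methods, the authors trimmed the reads, aligned them with Bowtie2 and counted them per Ensembl gene with HTSeq in union mode; whether counting used strand is not given in the sources used here. The submitters' processing notes name edgeR 2.6.12. The deposited values are raw counts per gene, not normalized, with replicates not pooled. The labels and the methods give different RNA integrity numbers as the standard for keeping a sample, one low and one high, and RNA quality could not be checked from the counts.

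Groups were taken from the labels. Counts were fitted with edgeR 4.0.16 (R 4.3.3): filterByExpr with a minimum count of 10, TMM, a mean for each of 4 groups over all 7 libraries, quasi-likelihood tests and Benjamini-Hochberg adjustment over 13534 genes. SEs were the fold change over the root of F. A call needed 2-fold or more and an adjusted p below 0.05. The replicate number marks the sequencing run in the titles. Deviations of same-numbered libraries correlated at 0.70 to 0.80 between groups, so the numbers pair the libraries, and fits with the run as a block are given. Replicates are separate pools. In the fits over 4 groups each p-value rests on 1 estimate of spread per gene, shared by the groups and drawn toward that of other genes. The P29 control lends none to it, so its comparisons borrow the spread of the other groups. With the block it is the spread left after the run. CPM intervals are exact Poisson, ratio intervals conditional exact binomial and share intervals Clopper-Pearson. They cover counting error only, since reads carried no molecular identifiers. Scripts were tested on simulated counts. Alternatives were the blocked fits, a likelihood ratio test, an exact test on the compared groups, DESeq2 1.42.0, other scalings and filters, and leaving out each library. Correlations used log2 CPM with a prior count of 2, a pseudocount that understates changes of low genes.

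Receptors and gene lists were chosen with earlier results of these data known. Named were both receptors, the matched receptor chains and transcription factors, the signalling genes called in any comparison or their counts, the most abundant members of other lists as examples, and the 5 genes that correlated best with each receptor. TREM2, the signalling genes that were not called and genes listed at 0 were named after their values were seen. Identifiers were paired with symbols through gene names in the study's supplementary tables, which hold mainly genes the study listed as changed. For most lists fewer than 80% of symbols were matched, and the rest were not analysed here. No sequences of these genes were used here. A further gene of the cord list is not reported here.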

Additional observations from a re-analysis of the deposited data

How the results depend on the processing

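No alternative reversed the injury changes of CSF1R or CSF2RB, and of 168 refits of a receptor's change, 14 were called. The exact test on the compared groups called CSF2RB at P7 (log2 fold change 3.81), and the likelihood ratio test with the replicate block called CSF2RB at P7 (3.84), CSF1R at P28 (1.90) and CSF1R from P8 to P29 (2.02). The difference of CSF1R between the ages, 0.94 without a block, reversed to -0.033 with the replicate block, to -0.037 by the likelihood ratio test with the block and to -0.22 without the P28+24h injured library of run 2. The cause was not tested. The quasi-likelihood test with the replicate block called neither receptor in any comparison.

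Genes called at P7 numbered 0 in the quasi-likelihood fit, 6 by the exact test, 2 by DESeq2, 2 with the replicate block and 36 by the likelihood ratio test with it. At P28 they numbered 0, 3 by the exact test, 102 with the block and 493 by the likelihood ratio test. From P8 to P29 they numbered 242, 1151 by the exact test, 862 by DESeq2, 138 with scaling by library size alone, 2893 with the block and 3242 by the likelihood ratio test. For the difference between the ages they numbered 0, 5 with the block and 200 by the likelihood ratio test. The block lowered the common dispersion from 0.141 to 0.0181.

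With 1 library left out in turn and no block, CSF1R ranged from 1.09 (without the P7+24h injured library of run 2) to 2.36 at P7, from 1.66 to 3.42 at P28, from 0.79 to 1.40 from P8 to P29 and from -0.22 to 1.75 for the difference. CSF2RB ranged from 3.07 to 4.40, from 1.92 to 2.28, from 1.18 to 2.30 and from -2.27 to -0.93. Genes called stayed at 0, except 0 to 139 from P8 to P29. A group left with 1 library is assumed to vary like the others, and the P29 control could not be left out of its own comparisons. With the block as well, CSF1R ranged from 1.26 to 2.19 (adjusted p = 0.0104 to 1, called without either P28+24h injured library), from 1.66 to 2.32 (called without that of run 1), from 1.40 to 2.34 and from -0.36 to 0.57. CSF2RB ranged from 2.82 to 4.59 (adjusted p = 7.0e-12 to 0.701, called without the P8 control or P7+24h injured library of run 1 or either P28+24h injured library), from 0.95 to 2.39 (called without the P28+24h injured library of run 2), from 1.18 to 2.70 (called without either P28+24h injured library) and from -2.97 to -0.43. Genes called ranged from 2 to 51, 300 to 960, 2257 to 3468 and 24 to 720. Apart from the fit without the P29 control, those fits leave a single residual degree of freedom, so that their calls say little. Depth limits the controls most: with 2 to 7 counts of a receptor in each, folds are known only within wide intervals.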
